A study of Mus musculus with 12 samples.

Results

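The genes described here are 45 cell cycle genes measured in macrophages from mouse tumours: 19 genes of S phase, when DNA is copied, 24 genes of G2 and mitosis (G2/M), and Stmn1 and Hmgb2, which are abundant in dividing cells without belonging to a single phase. They were taken as a list of gene symbols from the 24781 symbols of the deposited table, and all 45 were found there. Tumour-associated macrophages (TAMs) came from wild-type mice inoculated with MC38, a line of mouse colon adenocarcinoma cells, and each library held RNA from 100 sorted CD45+CD11b+F4/80high cells taken on day 7 after inoculation. In both groups the mice were otherwise untreated wild-type animals on a C57BL/6 background, and they received injections into the peritoneum from the day before inoculation: the solvent DMSO in 6 libraries, and in the other 6 picrotoxin, an antagonist of the GABA-A receptor, a chloride channel opened by the transmitter GABA. The labels call the 6 libraries of a group independent preparations. According to the methods of the study 1 library was made per mouse, but its figure text counts fewer mice than libraries. Because no label ties libraries to a shared mouse, each was taken as independent in the tests; shared mice would make the p-values too small. The question put to the data was how strongly these genes were expressed in TAMs, and whether their levels differed between picrotoxin and DMSO.

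Progress through the cell cycle is read from transcripts because many of its components are made only when they are needed. Before and during S phase, the E2F transcription factors switch on the genes for the replicative helicase, the sliding clamp and the enzymes that supply deoxynucleotides. Later, a complex that binds the CHR promoter element, often beside CCAAT boxes bound by the factor NF-Y, releases the genes for mitotic cyclins, kinases, spindle proteins and centromere proteins. Macrophages in tumours are replenished from blood monocytes and can also divide in place, so both sets of transcripts can be found in them.

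Promoters of 5 of these genes show the elements on which the S-phase and the G2/M genes differ. The lines give 160 bases upstream of the start that RefSeq annotates on GRCm38.p6, written 5′ to 3′ on the strand of the gene. Capitals mark matches, on either strand, to the CHR element (TTTGAA or TTCGAA), to CCAAT, and to E2F sites (TTTCCCGC, TTTCGCGC, TTTGCCGC or TTTGGCGC). Top2a, Cdk1 and Hmgb2 were taken for having the most matches, and Mcm6 and Mcm5, chosen after the matches were seen, for having the most E2F matches of the S-phase genes in the bases printed. Ube2c had 7 matches but is not printed because 31 of its bases lie inside the gene as GENCODE annotates it.
Top2a (chr11:99024190-99024349, minus strand): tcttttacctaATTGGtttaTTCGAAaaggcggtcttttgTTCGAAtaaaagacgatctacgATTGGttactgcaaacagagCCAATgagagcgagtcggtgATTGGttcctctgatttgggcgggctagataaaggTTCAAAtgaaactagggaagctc
Cdk1 (chr10:69352913-69353072, minus strand): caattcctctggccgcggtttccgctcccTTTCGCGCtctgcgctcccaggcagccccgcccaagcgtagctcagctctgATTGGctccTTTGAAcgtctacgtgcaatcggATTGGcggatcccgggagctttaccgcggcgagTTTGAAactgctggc
Hmgb2 (chr8:57511683-57511842, plus strand): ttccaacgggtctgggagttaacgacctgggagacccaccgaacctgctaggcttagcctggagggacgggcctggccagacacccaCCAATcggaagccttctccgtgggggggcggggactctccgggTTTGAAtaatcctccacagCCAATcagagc
Mcm6 (chr1:128359706-128359865, minus strand): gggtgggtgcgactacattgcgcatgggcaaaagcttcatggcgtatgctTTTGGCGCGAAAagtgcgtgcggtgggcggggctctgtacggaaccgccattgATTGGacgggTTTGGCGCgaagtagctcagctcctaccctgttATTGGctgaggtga
Mcm5 (chr8:75109349-75109508, plus strand): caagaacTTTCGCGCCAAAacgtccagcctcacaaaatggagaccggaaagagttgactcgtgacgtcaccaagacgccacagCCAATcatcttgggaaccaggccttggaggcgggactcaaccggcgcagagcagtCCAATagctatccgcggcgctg
The Top2a line holds 3 CHR matches and 4 CCAAT matches, and the Cdk1 line holds 2 CHR matches, 2 CCAAT matches and 1 E2F match. Of the 160 bases of Cdk1, 26 lie inside the gene in the GENCODE annotation, which starts it further upstream. The Mcm6 line holds 3 E2F matches, of which the first 2 overlap, and Mcm5 has 2 overlapping E2F matches at its far end. Neither of these S-phase lines has a CHR match.

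Over all genes with a promoter in the table, the 2 phases differed in the same elements. A CHR match within 250 bases before to 50 bases after a start was present in 16 of 20 G2/M genes (80.0%) and in 3 of 16 S-phase genes (18.8%), against 21.7% of all 27025 genes of the promoter table and 16.6% of the expressed genes tested below. E2F matches had the opposite distribution, with 7 of 16 S-phase genes (43.8%), 1 of 20 G2/M genes (5.0%), 2.61% of all genes and 5.03% of the tested genes. CCAAT was found in 90.0% of the G2/M genes, 62.5% of the S-phase genes and 41.1% of all genes. All 16 G2/M genes with a CHR match also held CCAAT in the same promoter, a pairing present in 8.61% of all genes. Of the 24 CHR matches in G2/M genes, 18 began between 100 bases before and 50 bases after the start, with a median position 18.5 bases upstream. Matches were counted from each annotated start, so that the same element of Prc1 is among them at both -5 and -30. Longer lists of genes of the same phases, written from general knowledge, gave the same order, since E2F was matched in 31.3% of 48 further S-phase genes and 10.3% of 68 further G2/M genes, and CHR in 22.9% and 69.1%. Promoters were matched for 37 of the 45 genes; Ccna2, Mcm4, Stmn1, Kif20a, Aurkb, Tpx2, Gins2 and Ccne2 had none. These are matches of letters, not measurements of binding.

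**Figure D1:**
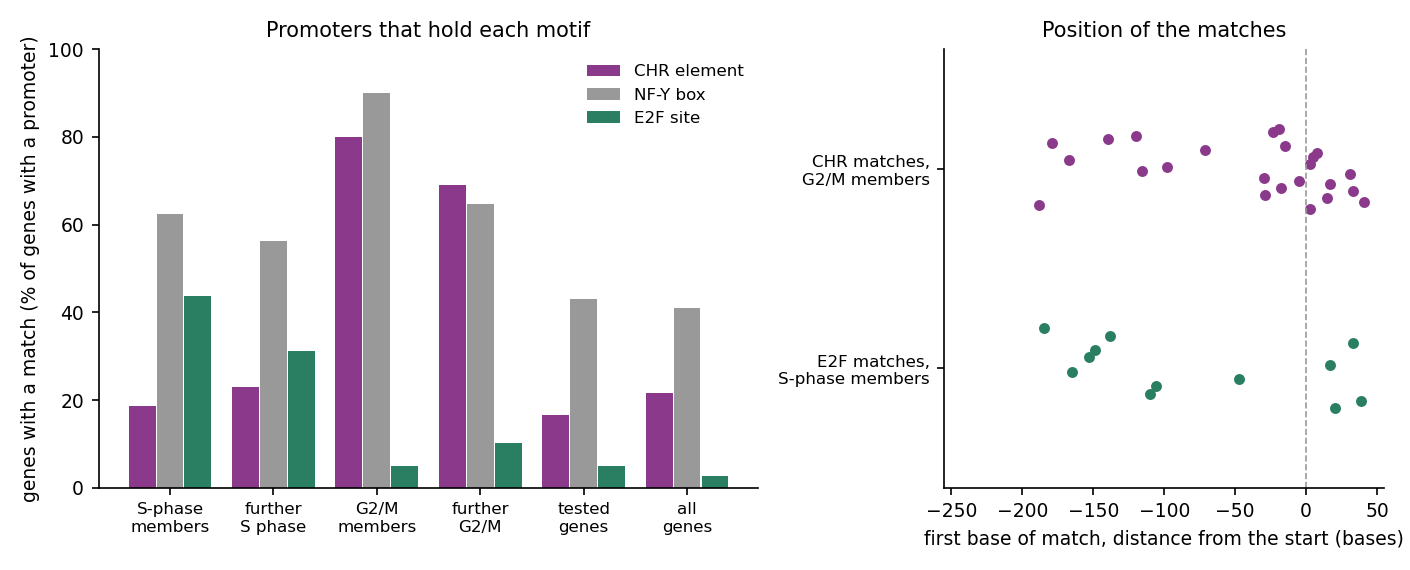
Left, bars give the percentage of genes with a promoter that hold a CHR element, an NF-Y box (CCAAT) or an E2F site, for S-phase members, further S-phase genes, G2/M members, further G2/M genes, tested genes and all genes of the promoter table. Right, each point is a match, placed by the distance in bases of its first base from the annotated start. Matches are counted from each annotated start, so the same CHR element of Prc1 is drawn more than once. CHR matches of G2/M members crowd near the start, with 18 of 24 between -100 and 50.

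Libraries held 201697 to 309617 molecules, counted by molecular barcodes, so that a count of 0 in the smallest library allowed a share of up to 0.00149% (3 molecules, counting error only). Of all genes, 9580 had a mean above 1 normalised molecule and were tested. The sorted cells carried their defining transcripts in every library: Ptprc, which encodes CD45, ranged from 82.6 to 153 normalised molecules, Itgam (CD11b) from 95.7 to 199 and Adgre1 (F4/80) from 47.1 to 87.9. Itgam had a log2 fold change of 0.38 (95% interval 0.11 to 0.65, adjusted p = 0.408), with its lowest values in DMSO replicates 3 and 5. Of 12 transcripts of fibroblasts and matrix, between 13 and 751 molecules were counted in a DMSO library and between 7 and 54 in a picrotoxin library, with 751 in DMSO replicate 5 and 161 in DMSO replicate 3. Of 12 epithelial transcripts, 7, among them Epcam, Krt18, Krt19 and Krt20, were at 0 in all 12 libraries. The list summed to 8 to 14 molecules in DMSO and 9 to 21 in picrotoxin, nearly all of them from 1 gene. Cdh1 gave 152 of the 158 molecules of this list over all libraries. The lists of T and NK cells, B cells, neutrophils, dendritic cells and endothelium summed to at most 24 molecules in a library, and 6 monocyte transcripts to between 221 and 383. What part these transcripts of other cells had in the values below was not tested, apart from the values given without DMSO replicates 3 and 5.

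Both phases were present in every library, and neither sum differed between groups by more than the spread among libraries. Normalised molecules are counts divided by a size factor for the library. The 19 S-phase genes summed to 330 ± 41.9 normalised molecules with DMSO and 336 ± 45.4 with picrotoxin (SD, n = 6 each), a log2 ratio of 0.02. The 24 G2/M genes summed to 461 ± 69.6 with DMSO and 451 ± 68.5 with picrotoxin, a log2 ratio of -0.03. As shares of all molecules, S-phase genes took 0.144% ± 0.0177 and 0.142% ± 0.0198, a log2 ratio of -0.02, and G2/M genes 0.200% ± 0.0291 and 0.191% ± 0.0296. In libraries of pooled cells, fewer dividing cells and less RNA per dividing cell cannot be told apart.

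S-phase sums ran from 260 to 381 in DMSO libraries, with a median of 334, and from 294 to 408 in picrotoxin libraries, with a median of 319. G2/M sums ran from 333 to 536, median 479, and from 385 to 561, median 444. The groups overlapped between 294 and 381 for S phase and between 385 and 536 for G2/M. DMSO replicate 4 was lowest for S phase and highest of its group for G2/M, picrotoxin replicate 6 was highest for S phase and lowest of its group for G2/M, and DMSO replicate 1 was lowest for G2/M and near the median for S phase. The ratio of G2/M to S-phase molecules was 1.43 ± 0.360 with DMSO and 1.37 ± 0.314 with picrotoxin, and among single libraries it spanned 0.942 to 2.06. When only replicates 1 and 2 of each group were taken, an alternative chosen after seeing the data, the log2 ratio of the G2/M sums was 0.23, and among replicates 3 to 6 it was -0.15. Without DMSO replicates 3 and 5, the libraries with most matrix transcripts, it was -0.02, and that of the S-phase sums was 0.04.

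**Figure D2:**
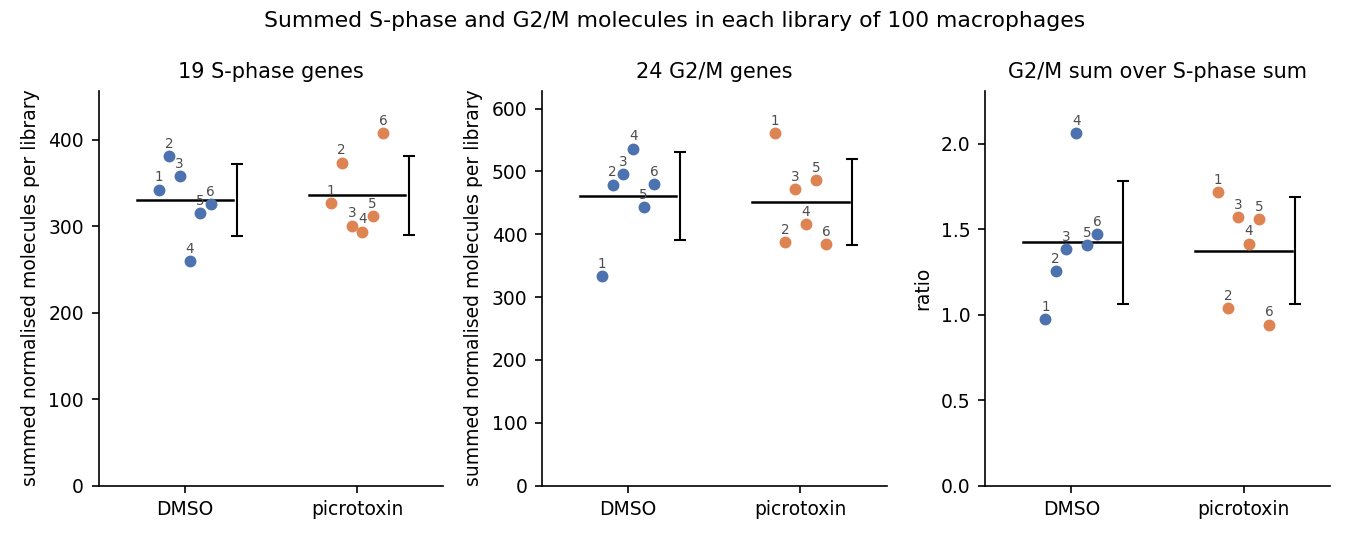
Each point is a library, labelled with its replicate number, in the DMSO or picrotoxin group; the vertical axes give summed normalised molecules of 19 S-phase genes, of 24 G2/M genes, and the ratio of the latter to the former. Horizontal lines are group means and bars 1 SD (n = 6); the means of the 2 groups, 330 and 336 for S phase and 461 and 451 for G2/M, lie well within the spread of the points.

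No gene of the list passed the test between picrotoxin and DMSO. In the quasi-likelihood test of edgeR with Benjamini-Hochberg adjustment over all 9580 genes, 0 of 45 reached an adjusted p under 0.05, as did 5 of all genes (0.0522%). At an unadjusted p under 0.05, 1 of 19 S-phase genes and 3 of 24 G2/M genes were counted, against 740 of all tested genes (7.72%). The study's own rule, an unadjusted p under 0.05 in DESeq2, counted 0 of 45 genes, where 3.82% of all genes passed. This count covers only these 45 genes. The same rule counted 2 of 60 further S-phase genes described below, Clspn higher and Hells lower with picrotoxin. Of 83 further G2/M genes it counted 4, with Smc4 higher and Gtse1, Nde1 and Kif14 lower. The study annotated all genes that passed its rule, and reported cell cycle genes among those lower with picrotoxin. Not 1 of the 45 had groups without overlap, which 37 of all tested genes did (0.386%). The 95% intervals lay wholly between log2 fold changes of -1 and 1 for 17 of 19 S-phase genes, 17 of 24 G2/M genes, and both Stmn1 and Hmgb2, and their median width to either side was 0.48 over S-phase and 0.51 over G2/M genes. The median log2 fold change was 0.02 over S-phase genes and -0.13 over G2/M genes, against -0.01 over all tested genes. Negative fold changes were found in 8 of 19 and 14 of 24, against 50.7% of all tested genes. The G2/M median was -0.26 without picrotoxin replicate 1, -0.03 without DMSO replicate 6, and -0.23 among replicates 3 to 6. In this last fit 20 of 24 were negative, against 50.3% of all tested genes. The S-phase median was -0.06 without picrotoxin replicate 6 and 0.08 among replicates 3 to 6.

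**Figure D3:**
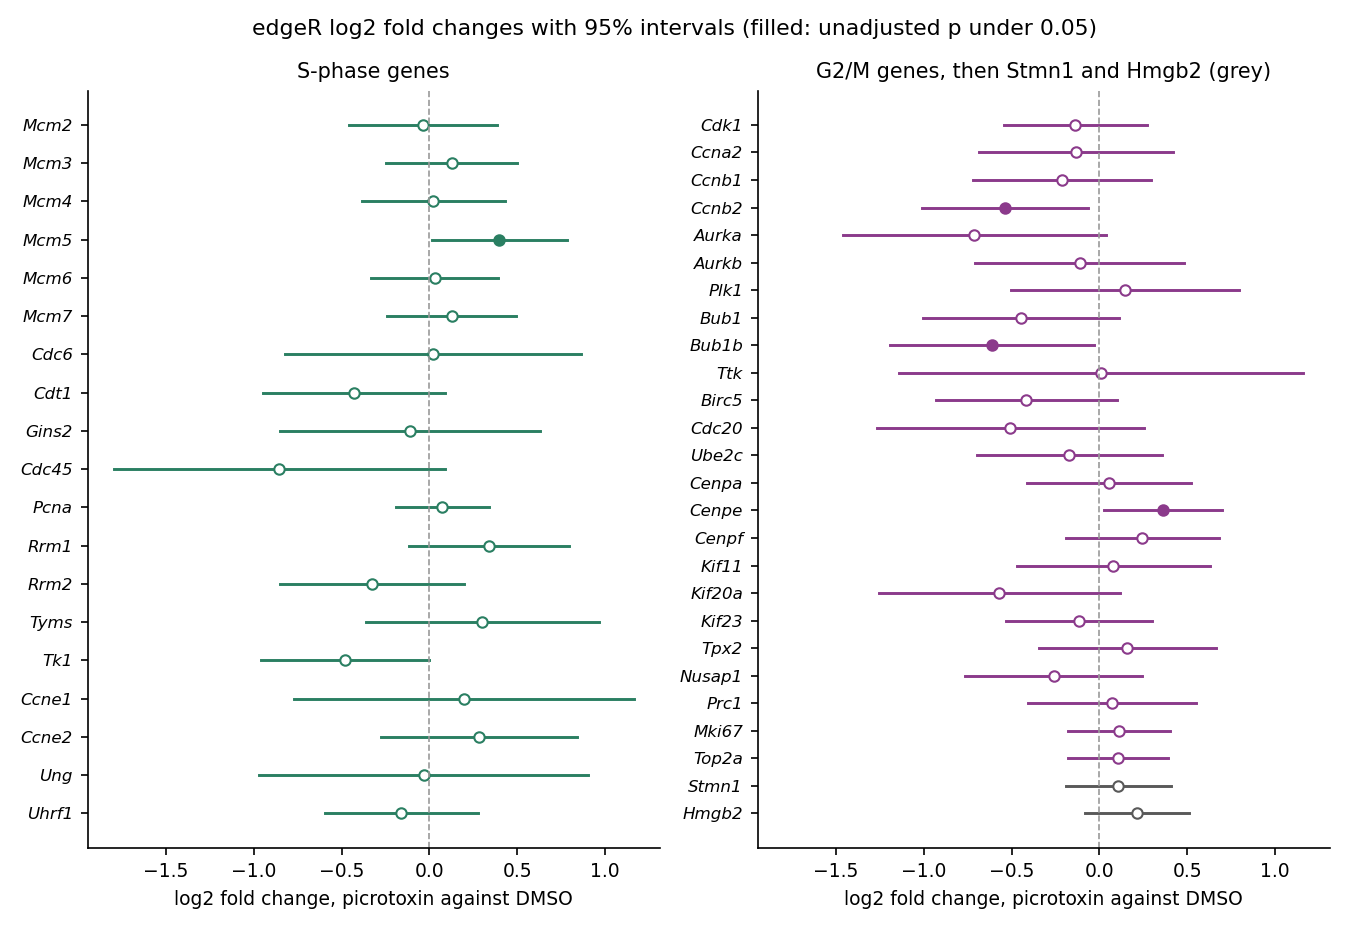
Points are log2 fold changes of picrotoxin against DMSO from edgeR, and lines are 95% intervals (6 libraries a group), for the S-phase genes on the left and the G2/M genes with Stmn1 and Hmgb2 in grey on the right. Filled points mark Mcm5, Ccnb2, Bub1b and Cenpe, the 4 genes with an unadjusted p under 0.05; all 45 adjusted p-values were at least 0.574.

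Among S-phase genes, the helicase took the largest share of the molecules. Mcm2 to Mcm7 encode the 6 subunits of the ring that unwinds DNA at the replication fork, and they summed to 151 ± 23.5 normalised molecules with DMSO and 162 ± 29.8 with picrotoxin. Mcm3, Mcm6 and Mcm7 had means between 30.7 and 35.9 in both groups, and log2 fold changes of 0.13 (95% interval -0.25 to 0.50), 0.03 (-0.33 to 0.39) and 0.13 (-0.24 to 0.49). The sign of Mcm6 was negative with library totals as the scale (-0.03). Mcm2 and Mcm4 were measured at about 16 molecules, with fold changes of -0.04 and 0.02.

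Mcm5 (chr8:75109569-75128439 of GRCm38, plus strand) was the S-phase gene with the smallest p of the list. Its normalised molecules were 13.9 at the lowest, 21.1 at the median and 27.1 at the highest of the DMSO libraries, and 19.1, 27 and 32.2 among picrotoxin libraries. The groups overlapped, and the DMSO mean was exceeded in 5 of 6 picrotoxin libraries. The log2 fold change was 0.40 ± 0.188 (SE) with a 95% interval of 0.01 to 0.78, an unadjusted p of 0.0422 and an adjusted p of 0.624, when 3.67% of all genes were higher with picrotoxin at such a p. In 6 of the 12 fits that left out 1 library the p was over 0.05, at fold changes of 0.29 to 0.49 over all 12, and it was over 0.05 with library totals as the scale.

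Pcna, the sliding clamp that holds DNA polymerase on its template, had the highest level of the S-phase genes on both scales, with 273 CPM (counts scaled to equal library totals) and 180 CPM per kb of its longest coding transcript. It was measured at 55.6, 61.3 and 69.7 normalised molecules (lowest, median, highest) with DMSO and at 49.4, 67.9 and 76.1 with picrotoxin. The picrotoxin libraries enclosed the DMSO libraries, and the log2 fold change of 0.07 had an interval of -0.19 to 0.34, the narrowest among the S-phase genes. A pseudogene shares 31.8% of its transcript in stretches of 50 bases, so part of its count is uncertain.

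The genes that supply deoxynucleotides had fold changes of both signs. Rrm1 and Rrm2 encode the large and the small subunit of ribonucleotide reductase, and their log2 fold changes were 0.34 (-0.11 to 0.80) and -0.33 (-0.85 to 0.20). Rrm2 varied widely, from 11.1 to 31.8 normalised molecules among DMSO libraries and from 8.41 to 25.8 among picrotoxin libraries, with medians of 21.1 and 12.8. The fold change of Rrm2 was -0.19 without DMSO replicate 3, whereas among replicates 3 to 6 (-0.74) and without picrotoxin replicate 1 (-0.55) it had an unadjusted p under 0.05. Its chi-square per degree of freedom against equal shares of the library totals was 3.24 in DMSO and 3.03 in picrotoxin, where 1 is counting noise. Tyms, thymidylate synthase, was measured at 6.5 ± 1.93 and 8.0 ± 4.11 molecules, and its 2 highest values, 13.7 and 12.9, were in picrotoxin replicates 3 and 6. Tk1, the thymidine kinase of S phase, exceeded its DMSO mean in 0 of 6 picrotoxin libraries. Its log2 fold change was -0.48 (-0.96 to -0.00037, adjusted p = 0.649), with an unadjusted p of 0.0516. That p was under 0.05 with DESeq2 size factors or library totals as the scale, with a mean above 10, and without the ribosomal Rn45s row. It was also under 0.05 without DMSO replicate 1, 4 or 6 or picrotoxin replicate 1, and over 0.05 in the other alternatives.

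The other S-phase genes were low. Cdc6 and Cdt1 load the helicase onto origins, and Cdc45 and Gins2 belong to the complex that activates it; these 4 summed to 27.8 ± 4.85 normalised molecules with DMSO and 21.6 ± 4.86 with picrotoxin. Cdc45 had the most negative log2 fold change of the 45 genes, -0.86, on means of 4.79 and 2.58 molecules, and an interval of -1.80 to 0.09 that held both 0 and -1. Ccne1 and Ccne2, the E-type cyclins that drive entry into S phase, had fold changes of 0.20 and 0.28. Ung, a glycosylase that removes uracil from DNA, and Uhrf1, which directs maintenance methylation to newly copied DNA, had fold changes of -0.03 and -0.16.

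The topoisomerase and Ki-67 genes had the most molecules among the G2/M genes. Top2a, the topoisomerase that untangles sister chromatids, had the most molecules of all 45, though fewer per kb (82.7 CPM per kb) than Pcna, Stmn1 and Hmgb2, with 97.7 ± 18.5 normalised molecules in DMSO and 104 ± 24.9 in picrotoxin. DMSO libraries were at 62.4, 106 and 112 (lowest, median, highest) and picrotoxin libraries at 83.9, 91.2 and 140. The lowest value was in DMSO replicate 1 and the 2 highest were in picrotoxin replicates 1 and 3, while the other 9 lay between 83.9 and 112. The log2 fold change was 0.11, with an interval of -0.18 to 0.39, and turned to -0.02 among replicates 3 to 6 and without picrotoxin replicate 1. Mki67, which encodes the Ki-67 protein on the surface of mitotic chromosomes, was measured at 56.7 ± 8.81 and 60.6 ± 13.2, a fold change of 0.11 (-0.18 to 0.40) that was likewise negative in both of those fits (-0.04 in each).

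Cdk1 is the kinase that starts mitosis, and the A- and B-type cyclins are its partners. The log2 fold changes of Cdk1, Ccna2, Ccnb1 and Ccnb2 were all negative, and their sum was 69.2 ± 13.4 normalised molecules with DMSO and 59.0 ± 14.4 with picrotoxin. Cdk1 was measured at 17.7, 23.0 and 30.8 in DMSO libraries and 12.9, 22 and 32.3 in picrotoxin libraries, so its picrotoxin values spanned all its DMSO values, with a fold change of -0.14 (-0.54 to 0.27). Ccnb1 had a fold change of -0.21 (-0.72 to 0.29), and 42.1% of its transcript is shared with pseudogenes.

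Ccnb2 (chr9:70407692-70421547, minus strand) had the smallest p of the 45 genes. Its values were 11.9, 13.5 and 19.5 normalised molecules (lowest, median, highest) in DMSO and 6.02, 9.85 and 12.6 in picrotoxin. All 6 picrotoxin libraries lay below the DMSO mean, and the groups overlapped only between 11.9 and 12.6. The log2 fold change was -0.54 ± 0.234 (SE), its interval -1.01 to -0.06, its unadjusted p 0.0277 and its adjusted p 0.574. At such a p 4.05% of all genes were lower with picrotoxin.

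The kinases and checkpoint proteins of mitosis (Aurka, Aurkb, Plk1, Bub1, Bub1b, Ttk and Birc5, the latter a partner of Aurora B) summed to 63.7 ± 9.28 with DMSO and 50.1 ± 13.3 with picrotoxin, and 5 of the 7 fold changes were negative. Bub1b (chr2:118598211-118641591, plus strand), whose product BubR1 restrains the anaphase-promoting complex until chromosomes are attached, had values of 9.22, 11.2 and 15.5 in DMSO and 2.30, 8.12 and 12.6 in picrotoxin. Only picrotoxin replicate 3 was above the DMSO mean. The fold change was -0.61 ± 0.285 (SE), with an unadjusted p of 0.0387 and an adjusted p of 0.620. Aurka, Aurora kinase A, had the most negative fold change of the G2/M genes, -0.71, with an interval of -1.46 to 0.04. Plk1 and Ttk, kinases of spindle assembly and its checkpoint, had fold changes of 0.15 and 0.01, the latter on 30 molecules over all 12 libraries. Cdc20 and Ube2c, the activator and the ubiquitin-conjugating enzyme of the anaphase-promoting complex, had fold changes of -0.51 and -0.17.

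The fold changes of the 3 centromere genes were positive. Cenpe (chr3:135212537-135273611, plus strand), the kinetochore motor that gathers chromosomes at the spindle equator, was measured at 22.9, 29.3 and 40.8 normalised molecules in DMSO and 28.9, 40.2 and 44.2 in picrotoxin, and the DMSO mean was exceeded in 5 of 6 picrotoxin libraries. Its log2 fold change was 0.36 ± 0.165 (SE), its interval 0.03 to 0.70, its unadjusted p 0.0355 and its adjusted p 0.620. Cenpa, the histone variant that marks centromeres, and Cenpf, a large protein of the outer kinetochore, had fold changes of 0.05 and 0.24, and the 3 genes summed to 64.3 ± 16.7 and 75.9 ± 8.88. Whether centromere genes and mitotic kinases differed from each other was not tested. The motors and microtubule proteins of the spindle and midbody (Kif11, Kif20a, Kif23, Tpx2, Nusap1 and Prc1) summed to 82.5 ± 13.7 and 79.5 ± 15.3, with 3 of 6 fold changes negative and a range of -0.57 to 0.16. Not 1 of the 3 G2/M genes with an unadjusted p under 0.05 kept it without DMSO replicates 3 and 5, nor among replicates 3 to 6, and leaving out 1 library ended that of Ccnb2 in 2, of Bub1b in 5 and of Cenpe in 8 of 12 fits. Their fold changes without DMSO replicates 3 and 5 were -0.48, -0.57 and 0.34, and among replicates 3 to 6 they were -0.57, -0.57 and 0.28.

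**Figure D4:**
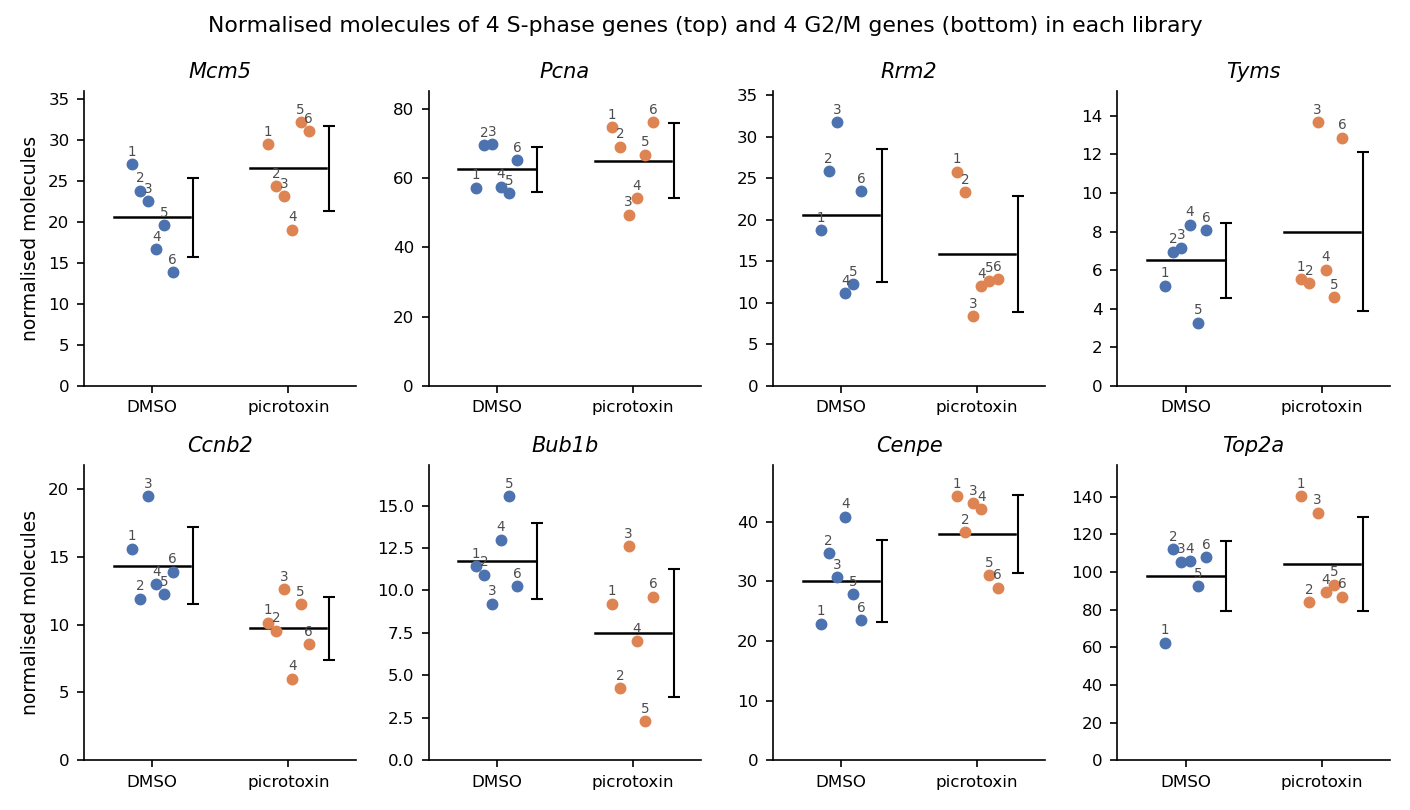
Each point is the normalised molecules of a gene in a library, labelled with its replicate number, for Mcm5, Pcna, Rrm2 and Tyms (top) and Ccnb2, Bub1b, Cenpe and Top2a (bottom); lines are group means and bars 1 SD (n = 6). The groups overlap for all 8 genes, and Ccnb2 has all 6 picrotoxin points below the DMSO mean of 14.4.

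Stmn1 and Hmgb2 were among the most abundant transcripts of the list. Stmn1 encodes stathmin, which takes microtubules apart, and reached 154 CPM per kb, and Hmgb2 encodes a chromatin protein and reached 105. Stmn1 was measured at 37.0 ± 5.93 with DMSO and 39.5 ± 4.55 with picrotoxin, a log2 fold change of 0.11 (-0.19 to 0.41) that was -0.01 without DMSO replicates 3 and 5. Hmgb2 was measured at 32.3, 62.3 and 72.5 (lowest, median, highest) and at 57.9, 68.8 and 80.2, a fold change of 0.21 (-0.08 to 0.51), with its lowest value in DMSO replicate 1, the library with the fewest G2/M molecules. Parts of both transcripts, 36.5% and 21.9%, are shared with other annotated transcripts.

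Further genes of the same phases also gave no gene that passed the adjusted test. Of 61 further S-phase genes, 60 were tested and 3 had an unadjusted p under 0.05, a smaller share than the 7.72% of all tested genes. Clspn, an adaptor of the replication checkpoint, had a log2 fold change of 0.84 (adjusted p = 0.472), Lig1, the ligase that seals Okazaki fragments, one of 0.39 (adjusted p = 0.620), and Hells, a chromatin remodeller, one of -0.69 (adjusted p = 0.503). None of these 3 had an unadjusted p under 0.05 without DMSO replicates 3 and 5, where the fold changes were 0.60, 0.36 and -0.37. Hells was highest, at 23.6 and 18.8 normalised molecules, in those same libraries.

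Of 85 further G2/M genes, 83 were tested and 6 had an unadjusted p under 0.05, 5 of them lower with picrotoxin, which is close to the 7.72% of all tested genes. Kif14, a motor of cytokinesis, had 4.37 ± 1.92 normalised molecules with DMSO and 1.54 ± 1.08 with picrotoxin, and a log2 fold change of -1.45 (-2.50 to -0.39, adjusted p = 0.412). Gtse1, a microtubule-associated protein of G2, was at 0 in 3 of 6 picrotoxin libraries and at 4.25 in picrotoxin replicate 2, with a fold change of -1.62 (adjusted p = 0.517) that was -2.75 without that library. The others were the chromokinesin Kif22 (-1.01), Sgo1, which protects cohesion at the centromere (-1.09), Nde1, a partner of dynein (-0.78), and Smc4, a subunit of condensin that was higher with picrotoxin (0.37, 6 of 6 libraries above the DMSO mean, adjusted p = 0.452). Without DMSO replicates 3 and 5 the unadjusted p was over 0.05 for Gtse1 (-1.29), Kif22 (-0.98), Sgo1 (-0.96) and Nde1 (-0.65) but not for Kif14 (-1.53) and Smc4 (0.46). Among replicates 3 to 6 it was over 0.05 for Smc4 (0.18) and Kif22 (-0.97). Leaving out 1 library ended the unadjusted p under 0.05 of Sgo1 in 7 and of Kif22 in 4 of 12 fits. The median fold change was 0.09 over the further S-phase genes and -0.02 over the further G2/M genes.

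Genes of the same phase tended weakly to vary together across libraries, and genes of different phases did not. For genes with a mean of at least 10 molecules, values on a log2 scale were centred on their group means before they were correlated over the 12 libraries. Pairs of S-phase genes had a median Pearson r of 0.26, with 53 of 66 positive, and pairs of G2/M genes one of 0.25, with 116 of 153 positive. Pairs of 1 gene of each phase had a median of -0.14, with 77 of 216 positive. Over all tested genes of that abundance the median was 0.00. Library depth, the scaling and the sampled cells are shared by all genes of a library, and pairs share genes, so these values are descriptions.

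The 2 sums had a Pearson r of -0.44 and a Spearman rho of -0.34 over 12 libraries. Within DMSO r was -0.33, within picrotoxin it was -0.53. Without DMSO replicate 4 and picrotoxin replicate 6, the libraries farthest from the median of the S-phase sum, r was -0.12 and rho 0.03 over a narrower range of that sum.

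**Figure D5:**
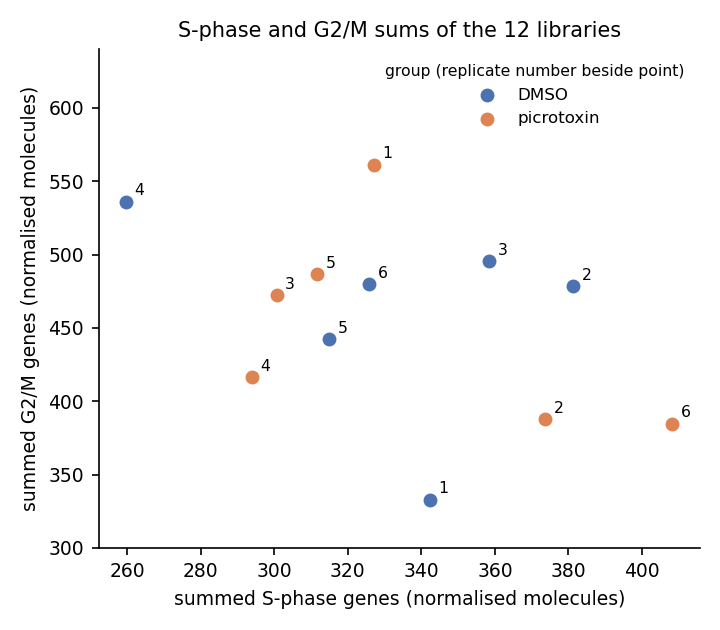
Each point is a library, with its replicate number; the horizontal axis gives the summed normalised molecules of the S-phase genes and the vertical axis those of the G2/M genes (neither axis starts at 0). DMSO replicate 4, at upper left, and picrotoxin replicate 6, at lower right, are the libraries farthest from the median of the S-phase sum; r is -0.44 with them and -0.12 without them.

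The spread of single genes among DMSO libraries was close to counting noise, and among picrotoxin libraries it was somewhat wider. Chi-square per degree of freedom among the libraries of a group had a median of 0.89 in DMSO and 1.4 in picrotoxin over S-phase genes, and 1.07 and 1.61 over G2/M genes, against 1.07 and 1.0 over all tested genes. The largest values were 4.8 for Ccna2 and 4.19 for Ube2c in DMSO and 5.81 for Top2a and 3.94 for Mcm3 in picrotoxin. Top2a, with 1257 molecules in all, had a standard error of 0.139 on the log2 scale, and Ttk, with 30, had 0.565.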

How the data were processed

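RNA of 100 sorted TAMs per library was fragmented by heat and reverse transcribed by the authors from a barcoded oligo-dT primer, and reads were mapped with STAR to mm10 (per the submitters' processing notes) with refFlat annotation. The deposited values are whole-number counts of molecules per gene; the counting tool, strand use, multimapping and barcode correction are not given in the sources used here. Oligo-dT priming favours 3′ ends, levels per kb of transcript are therefore rough, and overlapping or near-identical genes can share counts: 17 of the 45 genes overlap another gene (7 on the same strand), 26 share a stretch of 50 bases with another transcript, and 5 share more than 20% of theirs.

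Genes with a mean above 1 normalised molecule (counts divided by DESeq2 1.42.0 size factors) were tested with the quasi-likelihood test of edgeR 4.0.16 under R 4.3.3 (TMM, all 12 libraries, no covariate, two-sided), with Benjamini-Hochberg adjustment over 9580 genes; the fit was tested on simulated data. Standard errors follow from the fold change and the F statistic. Sums and correlations (prior count 2, python 3.11.15) are descriptions without tests. The genes, the further lists and the marker lists were chosen with earlier results of these data known. Named with values were members with an unadjusted p under 0.05, the 4 most abundant of each phase, preset anchors (Mki67, Top2a, Cdk1, Ccnb1, Pcna, Mcm5, Rrm2, Tyms, Stmn1, Hmgb2), up to 6 genes of each further list by p, and the sort markers. Other members were described by role after their values were seen.

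Pairs of libraries of a group (30) differed by 1.23 to 3.15 times sampling noise, so none was counted as a copy. The closest DMSO pair, replicates 1 and 2, was at 1.32, and DMSO pairs reached 3.15 where picrotoxin pairs reached 1.74. Whether libraries shared a mouse cannot be told from these values and was not tested. Coordinates are from GENCODE vM21 (GRCm38, the build named mm10), promoters from RefSeq (GRCm38.p6, 32851 starts). 26 rows named as dates are not named here. Alternatives were DESeq2, other scalings and filters, a replicate block, and omission of libraries.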

Additional observations from a re-analysis of the deposited data

Results flagged for a closer look

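Among 136 groups of 6 values that were examined for 1 library standing apart by Dixon's test at the 95% level, 8 were found, where 6.8 would be expected by chance at 1 in 20. Ung had 7.28 normalised molecules in DMSO replicate 1, where the other DMSO libraries had 2.45 to 4.10. Gtse1 was at 4.25 in picrotoxin replicate 2 and at 0 to 1.15 in the other picrotoxin libraries. Sgo1 was at 0 in DMSO replicate 1 and at 5.73 to 8.19 in the other DMSO libraries. Itgam was at 152 in picrotoxin replicate 1 and at 177 to 191 in the rest of its group. Of the marker lists, fibroblast and matrix transcripts summed to 751 molecules in DMSO replicate 5, against 13 to 161 in the other DMSO libraries, and monocyte transcripts to 383 in picrotoxin replicate 4, against 252 to 297. T and NK cell transcripts summed to 24 molecules in picrotoxin replicate 6, which had the highest S-phase sum, against 0 to 2 in the others of its group. Gzmb alone gave 20 of these 24, and 21 over all libraries. In picrotoxin replicate 6 Cd3d was at 2, and Cd3e, Cd3g and Cd8a were at 0. B cell transcripts summed to 1 molecule in picrotoxin replicate 3 and to 2 in each of the others. What set these values apart was not tested.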

How the results depend on the processing

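In none of the 21 alternatives did any of the 45 genes reach an adjusted p under 0.05. For the sums, 19 of 19 alternatives for S phase and 18 of 19 for G2/M lay within 1 SD of the reported log2 ratio. That SD, 0.190 and 0.227, is the spread between libraries, a wide margin for fits that share most of their libraries. Leaving out 1 library gave log2 ratios of -0.04 to 0.07 for S phase and -0.11 to 0.02 for G2/M. Replicates 1 and 2 alone, chosen after seeing the data, gave 0.23 for G2/M. Counts at an unadjusted p under 0.05 were small and changed. For S-phase members, 1 as reported, DESeq2 gave 0, and DESeq2 size factors and replicates 3 to 6 alone gave 2 each; leaving out 1 library gave 0 (DMSO replicate 5 or picrotoxin replicate 5) to 3 (DMSO replicate 1). For G2/M members, 3 as reported, DESeq2, replicates 3 to 6 alone, and omission of DMSO replicates 3 and 5 together gave 0 each; leaving out 1 library gave 0 (picrotoxin replicate 4) to 4, with 1 without DMSO replicate 5 or picrotoxin replicate 2. For further S-phase genes, 3 as reported, a filter of at least 1 molecule in any library gave 5 and replicates 3 to 6 gave 8, and leaving out 1 library gave 2 to 8 (8 without picrotoxin replicate 4). For further G2/M genes, 6 as reported, a mean above 10 gave 1, omission of DMSO replicates 3 and 5 gave 2, and leaving out 1 library gave 5 to 7. With library totals as the scale, calls over all genes were 220 higher and 526 lower instead of 352 and 388, the median log2 fold change was -0.06, and the members called were 1 lower of S phase (Tk1) and 3 lower of G2/M (Aurka, Bub1b and Ccnb2), 0 higher; without the ribosomal Rn45s row they were 290 and 449, and 399 and 625 with the filter of at least 1 molecule.

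Of 580 alternative values of single named genes, 495 kept their sign and side of the threshold, 71 lost an unadjusted p under 0.05, 2, both of Rrm2, gained it and 12 changed sign. The sign changed for Mcm3 without picrotoxin replicate 6 (leaving out 1 library gave -0.0625 to 0.23), for Mcm6 with library totals (-0.0269) and without DMSO replicate 4, DMSO replicate 6, picrotoxin replicate 2 or picrotoxin replicate 6 (leaving out 1 library gave -0.0713 to 0.13), for Top2a and Mki67 among replicates 3 to 6 (-0.0177 and -0.0406) and without picrotoxin replicate 1 (leaving out 1 library gave -0.0197 to 0.16 and -0.0396 to 0.17), and without DMSO replicates 3 and 5 for Stmn1 (-0.0122) and Ptprc (-0.0701). The cause was not tested. Leaving out 1 library gave p-values up to 0.136 for Mcm5, 0.0858 for Ccnb2, 0.115 for Bub1b and 0.109 for Cenpe, and log2 fold changes of 0.29 to 0.49, -0.62 to -0.43, -0.81 to -0.44 and 0.29 to 0.46.

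Same-numbered libraries of the 2 groups deviated together weakly at most. Their correlations were -0.00469 to 0.125, with 1 of 6 above 0.1, and a mean of 0.0531 against -0.0107 for other numbers. Of the 12 libraries, 4 correlated best with their own number. The numbers were not taken as pairs, and whether they carry a shared effect was not tested. A replicate block gave 1 S-phase, 3 G2/M, 4 further S-phase and 6 further G2/M genes at an unadjusted p under 0.05. At an adjusted p under 0.05 it gave 0 of the 45 but 43 of all tested genes, against 5 without the block. The log2 ratios of the sums were 0.02 and -0.03 with it. With means of 2.37 to 101 normalised molecules a gene, differences within the intervals given were not excluded. What size of difference could be detected was not computed. The intervals are not adjusted over genes. Those of Mcm5, Tk1, Ccnb2, Bub1b and Cenpe left out 0 at adjusted edgeR p-values of 0.574 to 0.649.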
